A study of Mus musculus with 6 samples.

Results

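A set of 10 named genes of the lymphatic endothelium was followed through single-cell RNA sequencing of mouse inguinal white adipose tissue (iWAT), the fat pad under the skin of the groin. The genes, of 31053 listed with the counts, were Nts, Ackr4, Marco, Prox1, Lyve1, Mmrn1, Flt4, Ccl21a, Reln and Fxyd3. They were picked by symbol as lymphatic genes that went with a fall at 57 weeks of age when the endothelial cells of a library were pooled, so their values by age in those cells are given as a description, with no test. The question was how many lymphatic cells each library held, which cells carried each gene, and what the genes did in those cells with age and temperature.

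The cells were CD45-depleted stromal vascular cells of C57BL/6 male mice, Young (9 weeks) or Aged (57 weeks), sequenced in 6 libraries with 1 library for each age and temperature. The study drew on C57BL/6JN mice of the National Institute of Aging and C57BL/6J mice of The Jackson Laboratory, and as the source behind each library was not given in the sources used here, substrain and age cannot be told apart. The mice first spent 3 weeks at 30 °C. The thermoneutral groups (TN) then stayed at 30 °C, and the 3D cold and 14D cold groups spent the last 3 or 14 days at 6 °C. The study's preparations of stromal vascular cells came from single mice unless stated, and no pooling is stated for these libraries, so that each group may be 1 mouse. The inguinal lymph node, itself rich in lymphatic endothelium, was removed from tissue not meant for histology. Whether node tissue was left in a library, and its part in the lymphatic cells counted, was not tested. Young and aged libraries also differed in depth, with 87219354 to 88508349 UMIs (unique molecular identifiers, each marking 1 captured transcript) in young and 52068837 to 74590296 in aged libraries. Median UMIs per cell kept were 7652 to 9904 in young and 2741.5 to 6912 in aged libraries, lowest in Aged 14D cold. In all, 57326 of 68103 barcodes were kept, and 524 of 67565 barcode sequences occurred in more than 1 library, none of them a lymphatic-gated cell.

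Lymphatic capillaries take up fluid, lipid and immune cells from tissue and pass them to collecting vessels and lymph nodes. Their endothelium is set apart from blood endothelium by the transcription factor Prox1 and the VEGF-C receptor Flt4 (VEGFR3), and carries the hyaluronan receptor Lyve1 and the secreted protein Mmrn1 (multimerin 1). Ccl21a encodes a chemokine that draws dendritic cells and T cells carrying Ccr7 into lymphatics, and Ackr4 encodes a scavenging receptor that removes Ccl21 and related chemokines. Nts encodes the precursor of the peptide neurotensin, Marco a scavenger receptor best known from macrophages, Reln the secreted protein reelin, and Fxyd3 a small subunit that modulates the sodium pump.

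On GRCm38, Nts (ENSMUSG00000019890) lies on chromosome 10 from 102481756 to 102490486 and Marco (ENSMUSG00000026390) on chromosome 1 from 120474538 to 120505024, both on the minus strand. Their UMIs lay in mostly separate lymphatic cells, and the bases just before each gene are printed for that reason. They come from RefSeq (GRCm38.p6), with the bases inside the annotated gene left out. The Nts stretch is chr10:102490487-102490668 and the Marco stretch chr1:120505025-120505274, each read 5′ to 3′ on the minus strand. Capitals mark an AP-1 site (TGANTCA), a core of the cAMP response element (TGACG, here read on the other strand) and a SOX core (ACAAAG).
Nts: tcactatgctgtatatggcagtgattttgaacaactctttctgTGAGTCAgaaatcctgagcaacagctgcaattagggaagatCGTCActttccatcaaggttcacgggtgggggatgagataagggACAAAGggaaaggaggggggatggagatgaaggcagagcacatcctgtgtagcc
Marco: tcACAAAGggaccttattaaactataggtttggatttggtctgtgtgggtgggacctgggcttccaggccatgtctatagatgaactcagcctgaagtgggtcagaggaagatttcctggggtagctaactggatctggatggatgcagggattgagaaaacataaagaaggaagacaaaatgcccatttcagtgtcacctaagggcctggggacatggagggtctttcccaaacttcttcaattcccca

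Distances are counted from the start in the RefSeq table, which for Nts lies 68 bases inside the gene as placed above and for Marco at its edge. The AP-1 site stood 207 to 201 bases before that start of Nts, the cAMP element core 166 to 162 and the SOX core 122 to 117 bases before it, and the SOX core of Marco 248 to 243 bases before its start. Among 32851 promoters searched over 250 bases on both strands, 6.75% held TGANTCA, 17.8% TGACG, 16.5% ACAAAG and 14.0% the nuclear receptor half-site AGGTCA. Of the 9 members with a listed promoter, Nts held the AP-1 and cAMP letters, Nts, Marco and Prox1 held ACAAAG, and none held AGGTCA. A match is a description of letters, and the table of promoters had no entry for Lyve1.

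Lymphatic cells were found with a gate on lineage markers. A cell counted as endothelial with at least 4 of 8 endothelial markers (such as Pecam1 and Cdh5) and fibroblast markers under 1% of its UMIs, and as lymphatic-gated when it also had at least 2 of Prox1, Flt4, Mmrn1 and Lyve1 with 3 or more UMIs among them. Of 4036 endothelial cells, 68 passed the gate. As these 4 genes are members, the number of gated cells was not independent of the choice of genes. A clustering of the endothelial cells without any member gave a cluster of 73 cells that took in 67 of the 68. In it all 8 of the lymphatic markers that are not members (such as Pdpn, Clca3a1 and Stab1) were detected above the other endothelial cells. The cluster was picked as the one with the most of these markers detected, so their presence is not separate evidence of what it is.

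The gated cells carried these other lymphatic markers. Levels are given as CPM, a gene's UMIs per 1000000 UMIs of the same cells, without further scaling. Summed over the 8 genes, their level was 1584 to 3463 CPM in the gated cells of the 6 libraries and 115 to 147 in the other endothelial cells, with 7 or 8 of the 8 at 1 UMI or more in each library. Blood endothelial markers, 12 genes, summed to 1957 to 3237 CPM in gated cells and 12562 to 14851 CPM in the other endothelial cells. The part of blood endothelial RNA in the gated cells was not tested. Macrophage markers summed to 0 to 22.6 CPM in gated cells, with C1qa, C1qb, Adgre1, Fcgr1 and Lyz2 at 0 in all 6 libraries. Fibroblast markers summed to 340 to 548 CPM there, except in Aged 14D cold, with 1731 CPM, and their part in the values of that library was not tested.

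Young libraries held a larger share of lymphatic-gated cells in the endothelium. There were 12 gated cells in Young TN, 15 in Young 3D cold and 21 in Young 14D cold, and 10, 6 and 4 in the aged libraries in the same order. The order in number depended on the filter, as Aged TN held 14 against 13 in Young TN under fixed limits for cells, and 16 against 14 with all barcodes over 200 genes. As a share of endothelial cells these were 2.39% (exact 95% binomial interval 1.24 to 4.13%), 3.34% (1.88 to 5.45%) and 3.61% (2.25 to 5.46%) in young mice. In aged mice they were 0.740% (0.356 to 1.36%), 0.917% (0.337 to 1.99%) and 0.805% (0.220 to 2.05%). The intervals cover counting error only.

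The young and aged shares did not overlap, with means of 3.11% ± 0.643 and 0.821% ± 0.0897 (SD, n = 3 libraries each), so that the aged share was 26.4% of the young. Over 9 settings of the cell filter and the gate it was 26.4% to 37.6% of the young, with no overlap in any of them. The denominator moved too: endothelial cells were 4.79% to 6.26% of the cells kept in young libraries, and 14.7% in Aged TN, 6.81% in Aged 3D cold and 4.57% in Aged 14D cold. Against all cells kept, gated cells were 0.149%, 0.160% and 0.205% in young and 0.109%, 0.0625% and 0.0368% in aged libraries. The share of all cells was then 0.171% ± 0.0292 in young and 0.0694% ± 0.0366 in aged libraries, and the groups overlapped with 3 gate markers in place of 2, or with all barcodes over 200 genes.

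**Figure D1:**
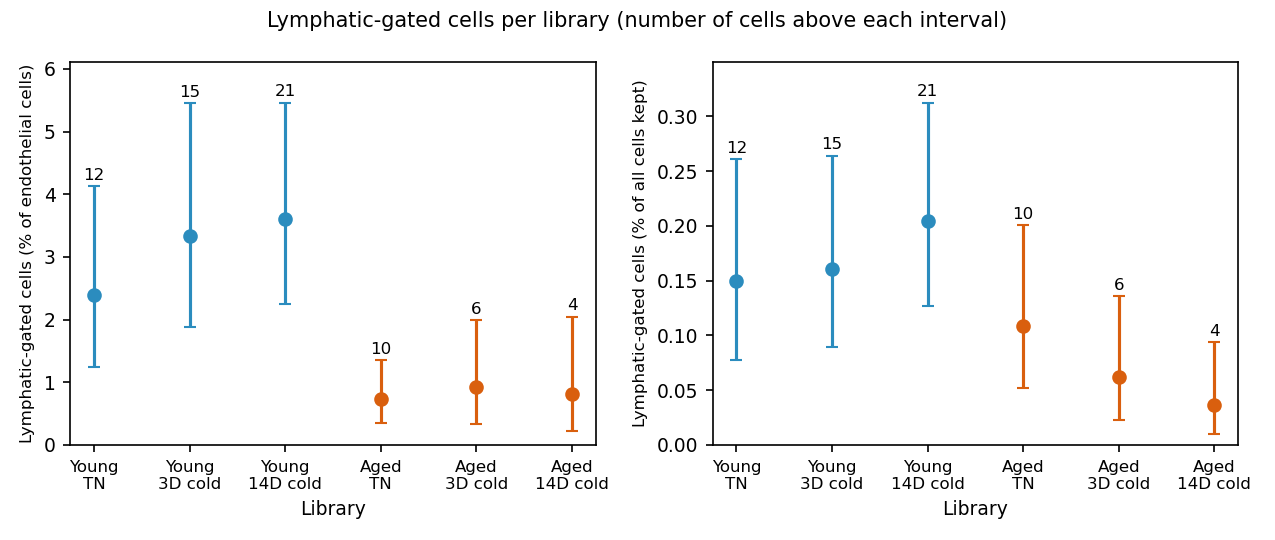
Lymphatic-gated cells in each library as a percent of endothelial cells (left) and of all cells kept (right). Points are libraries, bars are exact 95% binomial intervals, and the number of gated cells stands above each. The young libraries lie at 2.39% to 3.61% of endothelial cells and the aged at 0.740% to 0.917%.

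The cell filter and doublets bear on these counts, and shares under other settings are given as a description, without a test. The filter on UMIs and genes, set within each library, removed 10.3% to 35.7% of endothelial barcodes, and 2, 8 and 5 lymphatic-gated barcodes of the young libraries and 6, 6 and 0 of the aged. Of the 68 gated cells, 6 were among the highest doublet scores (Scrublet). A further 11 cells had the gate and at least 4 endothelial markers but too many fibroblast UMIs to be classed as endothelial. Without the highest doublet scores the shares were 2.84% ± 0.468 in young and 0.784% ± 0.0318 in aged libraries, and with each cell thinned to 2000 UMIs they were 2.10% ± 0.633 and 0.689% ± 0.354, without overlap in either case.

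Pooling all endothelial cells of a library mixes the number of lymphatic cells with the RNA in each, and from pooled sums alone fewer cells of a type and less RNA per cell cannot be told apart. In those sums 6 of the 10 members, Nts, Ackr4, Marco, Prox1, Lyve1 and Reln, were lower in each aged library than in any young one. Mmrn1, Flt4 and Ccl21a overlapped, and Fxyd3 had 1 UMI in all. Over all 10674 genes tested in these sums, edgeR called 1.71% with age, 82 higher and 101 lower in aged mice. A call is a stricter measure than groups without overlap, and the share of all genes without overlap is not given here. The 6 are therefore listed without a background of their own and without a reading, as age chose the members.

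**Figure D2:**
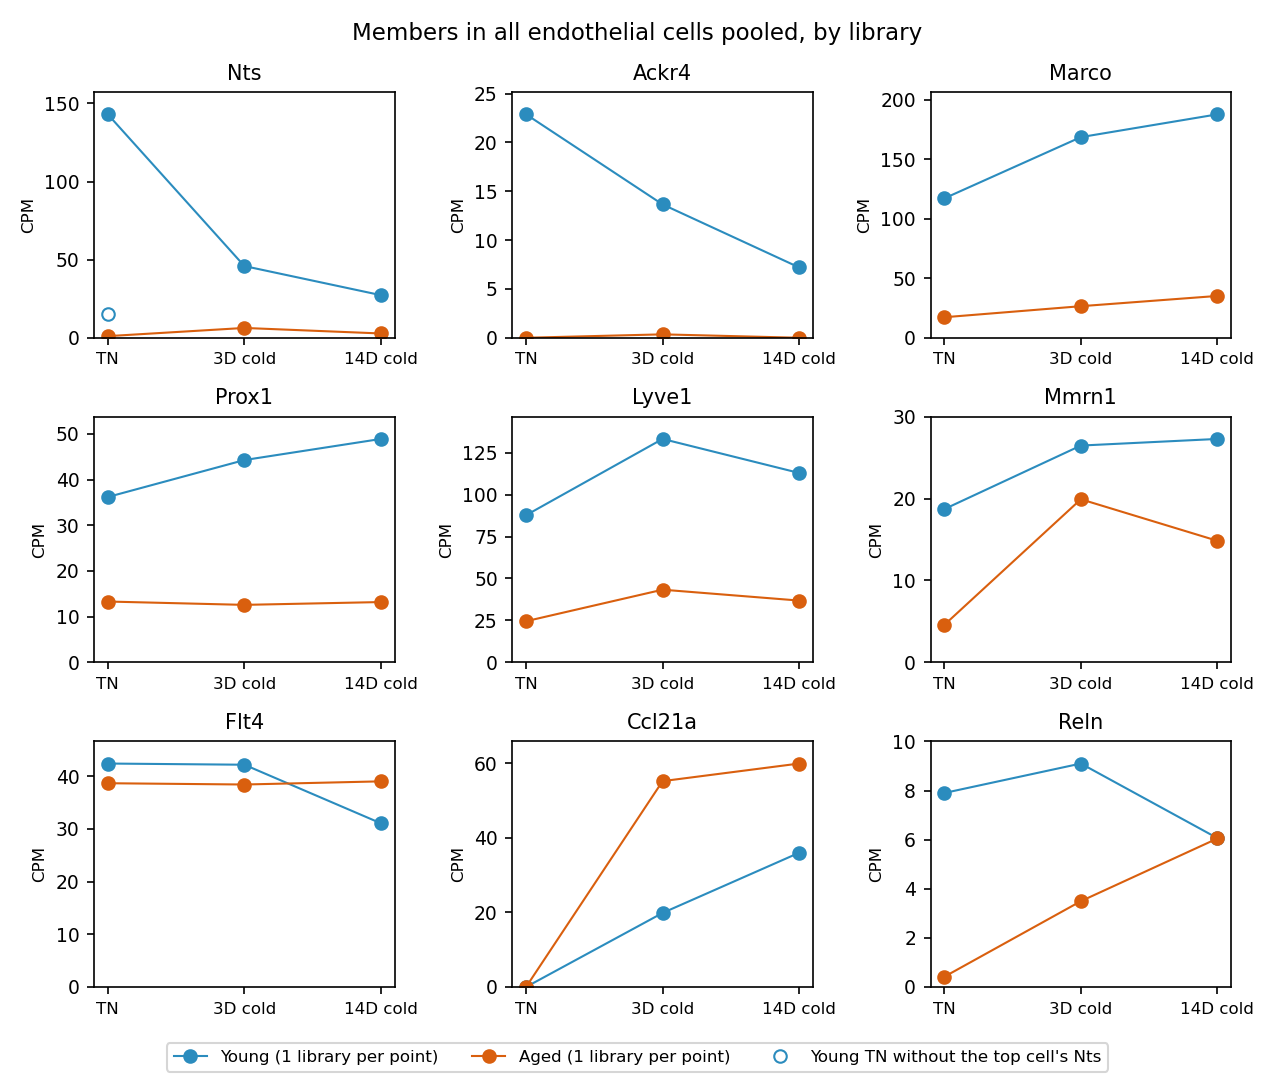
CPM of 9 members in all endothelial cells of each library, by temperature, for young and aged mice. Each point is 1 library and lines join libraries of the same age. The open point gives Nts in Young TN without the 308 UMIs of 1 cell. Marco, Prox1 and Lyve1 lie apart by age at each temperature, while Flt4 does not and Ccl21a is at 0 in both TN libraries.

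Prox1, the master regulator of lymphatic identity, had 87, 107 and 129 UMIs in the pooled endothelial cells of Young TN, 3D cold and 14D cold, and 64, 36 and 24 in the aged libraries. This was 43.1 ± 6.43 CPM in young and 13.0 ± 0.393 in aged libraries (SD, n = 3), or 30.2% of young. Within the gated cells the groups overlapped, at 892, 762 and 920 CPM in young and 993, 468 and 957 in aged libraries. The aged level in gated cells was 94.0% of young. Prox1, Lyve1, Mmrn1 and Flt4 set the gate, so that a cell without their UMIs is not in it, and their levels inside the gate cannot show that the level per lymphatic cell was kept. In the cluster made without any member the log2 difference of aged from young was -0.09 for Prox1 and 0.03 for Lyve1.

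Lyve1, the hyaluronan receptor of lymphatic capillaries, was also lower in each aged library in the pooled cells. Its pooled UMIs were 211, 322 and 298 in young and 118, 124 and 67 in aged libraries, or 111 ± 22.8 against 34.9 ± 9.54 CPM, 31.4% of young. In gated cells it stood at 2325, 2425 and 2139 CPM in young and at 1970, 2530 and 2779 in aged libraries, which overlapped. Its aged level there was 106% of young, with the same limit from the gate.

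Marco did not overlap between ages in either measure. It had 282, 408 and 496 pooled UMIs in young and 83, 76 and 64 in aged libraries, 158 ± 36.5 against 26.3 ± 8.96 CPM, so that the aged level was 16.7% of the young. In gated cells it was 3183, 3118 and 3607 CPM in young and 1422, 1595 and 2916 in aged libraries, without overlap, and 59.9% of young. Marco was detected in 6, 7 and 10 gated cells of the young and in 5, 2 and 3 of the aged libraries, and in those Marco+ cells it stood at 5390, 5792 and 6645 CPM against 3098, 5621 and 3565. In Marco+ cells the groups overlapped, with Aged 3D cold, where 2 cells carried it, inside the young range.

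Mmrn1, a secreted protein of the endothelium, had 45, 64 and 72 pooled UMIs in young and 22, 57 and 27 in aged libraries. This was 24.2 ± 4.73 and 13.1 ± 7.82 CPM, 54.3% of young and overlapping. In gated cells Mmrn1 stood at 440, 493 and 526 CPM in young and at 343, 1149 and 1093 in aged libraries, so that both aged cold libraries were above the young ones and Aged TN was below them. A single cell of Aged 3D cold held 43 of its UMIs.

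Flt4, the receptor for the lymphatic growth factor VEGF-C, lay mostly outside the gated cells and was alike between ages in mean level in the pooled cells. It had 102, 102 and 82 pooled UMIs in young and 186, 110 and 71 in aged libraries, which was 38.6 ± 6.49 and 38.7 ± 0.301 CPM. Of its endothelial UMIs, 25.1% lay in gated cells, and 431 of the 3968 other endothelial cells carried it. In those other endothelial cells Flt4 stood at 28.9, 23.2 and 19.2 CPM in young and at 36.0, 33.0 and 31.7 in aged libraries, higher in each aged library than in any young one. In gated cells the groups overlapped, at 248 to 395 CPM in young and 257 to 638 in aged libraries.

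Nts and Ackr4 were at or near 0 in aged endothelial cells. Nts had 344, 111 and 72 pooled UMIs in young and 5, 18 and 5 in aged libraries, or 72.1 ± 62.2 and 3.36 ± 2.68 CPM. A single Young TN cell held 308 of the 344, and the other UMIs of that library lay in 2 cells. In gated cells Nts was found in 1, 5 and 3 young cells with 308, 65 and 72 UMIs, and in 0, 3 and 1 aged cells with 0, 3 and 5 UMIs. Nts was thus detected in 9 of 48 young and 4 of 20 aged gated cells, which differed in UMIs per cell, with 445 UMIs in the 9 cells and 8 in the 4. This contrast covers gated cells only, which held 84.4% of the young endothelial Nts UMIs but 28.6% of the aged. Outside the gate, 20 aged Nts UMIs lay in 2 endothelial cells and 82 young UMIs in 3.

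Ackr4 had 55, 33 and 19 pooled UMIs in young and 0, 1 and 0 in aged libraries. In gated cells it was detected in 2, 3 and 5 young cells with 28, 31 and 17 UMIs. None of the 20 aged gated cells had a UMI, which allows a share of up to 15% of cells with a UMI at this depth and sets no limit on cells that express the gene. The 76 young UMIs lay in 10 of 48 gated cells, so no least fold change between ages is given. The aged level could not be placed closer at this depth.

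Reln and Ccl21a, both of which lay wholly or nearly wholly in gated cells among the endothelium, went different ways. Reln had 19, 22 and 16 pooled UMIs in young and 2, 10 and 11 in aged libraries, or 7.69 ± 1.53 and 3.32 ± 2.82 CPM, with 6.06 in Young 14D cold and 6.05 in Aged 14D cold. In gated cells the groups overlapped, at 117 to 214 CPM in young and 34.3 to 501 in aged libraries. Ccl21a had 0, 48 and 95 pooled UMIs in young and 0, 158 and 109 in aged libraries, so that both TN libraries were at 0 and the 4 cold libraries were not. Each of those 4 held it in 1 gated cell, with 48, 92, 157 and 109 UMIs.

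Fxyd3 went against the lymphatic label. None of its 384 UMIs lay in gated cells, which allows up to 4.41% of such cells with a UMI, and 1 lay in another endothelial cell. Epithelial cells held 144, fibroblasts 139 and Schwann cells 81 of them, with 13 of 14 epithelial cells carrying it.

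Within the 68 gated cells Marco, Nts with Ackr4, and Ccl21a were detected in mostly different cells. Marco was detected in 33 cells, all of them with Prox1 and Lyve1 and 31 of them with Flt4. Another 13 had Nts or Ackr4 without Marco or Ccl21a, and of these 12 had Mmrn1 and 4 had Lyve1. Ccl21a was in 4 cells, each with Reln, Mmrn1 and Lyve1, and 18 cells had none of the 4 genes. Nts and Ackr4 were found together in 6 cells, against 1.91 given by the product of their shares, and none of the 6 had Lyve1. Nts and Marco met in 1 cell against 6.31 by the same product, and Marco and Ccl21a in none against 1.94. These are descriptions across cells that share libraries and depth. The gate itself asks for at least 2 of Prox1, Flt4, Mmrn1 and Lyve1, so a gated cell without Lyve1 had to carry others of them. Among endothelial cells outside the gate 5 had Nts and 5 had Ackr4, and these are not counted here. Median UMIs per cell were 7548 in the Marco+ cells, 5584 in the cells with Nts or Ackr4 and 6529 in those with none.

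**Figure D3:**
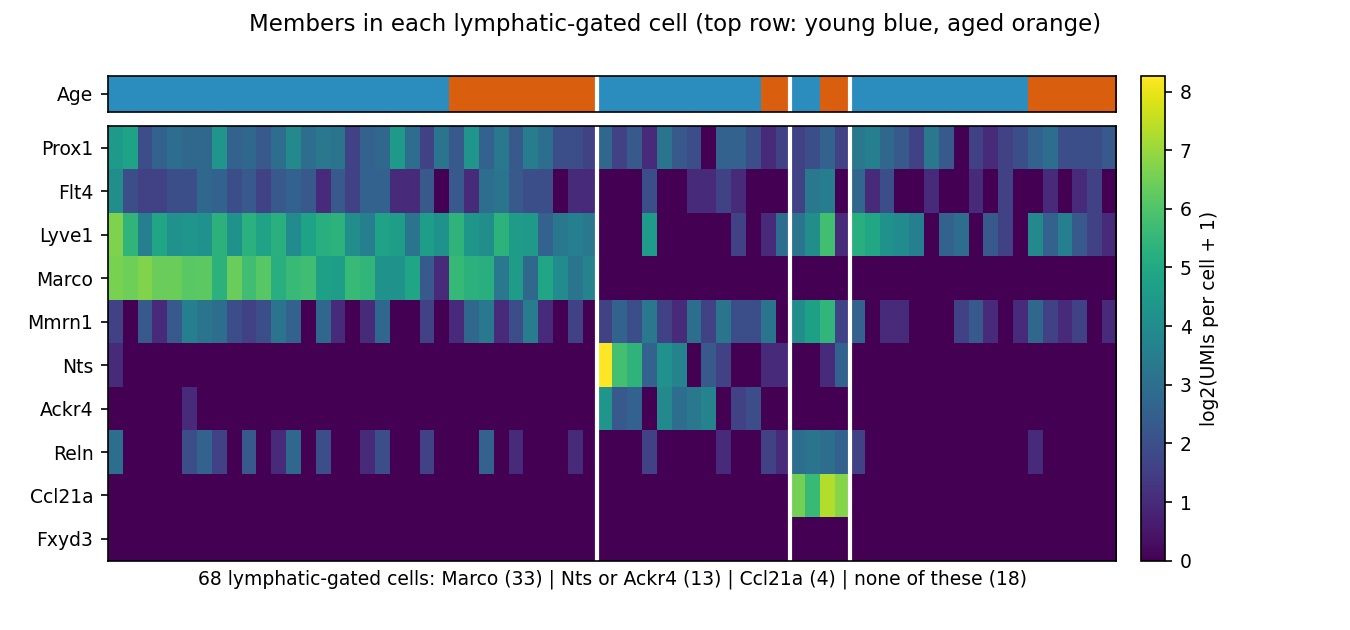
UMIs of the 10 members in each of the 68 lymphatic-gated cells, as log2(UMIs per cell + 1), 1 column per cell, grouped by the genes detected. The top strip gives the age. Cells with Marco (33) also carry Lyve1, cells with Nts or Ackr4 (13) mostly lack it, and the 4 cells with Ccl21a carry Reln. Fxyd3 is at 0 in each cell.

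By age the patterns divided as follows. Of the 33 Marco+ cells 23 were young and 10 aged, of the 13 with Nts or Ackr4 11 were young and 2 aged, of the Ccl21a+ cells 2 were young and 2 aged, and of the 18 with none 12 were young and 6 aged. Marco+ cells were 1.49% ± 0.269 of endothelial cells in young and 0.427% ± 0.157 in aged libraries, without overlap. Cells with Nts or Ackr4, with or without other members, were 0.847% ± 0.392 and 0.220% ± 0.230, and overlapped. Counting only gated cells with 4 or more UMIs of either gene, they were 0.527% ± 0.136 and 0.0671% ± 0.116, without overlap. The lack of overlap depended on this cutoff, and the aged libraries were shallower, so it is not read as a result. In the member-free cluster 10 young and 2 aged cells met the cutoff. The 2 aged cells of the Nts or Ackr4 pattern held 1 Nts UMI each. Aged endothelial cells outside the gate, of which 2 held 20 Nts UMIs, are not in these shares. Cells with both Nts and Ackr4 were 0.199%, 0.668% and 0.344% of endothelial cells in young libraries and were not seen in the aged, where 0 of 20 gated cells again allows up to 15% with UMIs of both.

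UMIs of the members were also found beyond the endothelium. Fibroblasts, which made up 50037 of the cells kept, held 775 of the 908 Ackr4 UMIs in 595 cells and 815 of the 1393 Prox1 UMIs in 719 cells, mostly at 1 UMI per cell. Macrophages held 152 of the 1835 Lyve1 UMIs in 32 of 75 cells, and 127 of the 1909 Marco UMIs in 3 cells. Schwann cells held 85 of the 303 Reln UMIs in 51 of 113 cells. Of the 1376 Ccl21a UMIs 552 lay in 3 mural cells, 420 of them in 1 Young TN cell, and 306 in cells of no class. In lymphatic-gated cells 66 of 68 had Prox1 and 10 had Ackr4. Per UMI sequenced, Prox1 stood at 2.13 CPM in fibroblasts, 2.55 in other endothelial and 2.53 in mural cells, against 839 in gated cells, and Ackr4 at 2.03 in fibroblasts and 1.94 in other endothelial cells, against 157. Prox1 was detected in 1.44% of fibroblasts and 0.479% of other endothelial cells, whose median UMIs were 7544 and 3403. These low levels are not read as expression, and the part of free RNA in them was not tested.

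**Figure D4:**
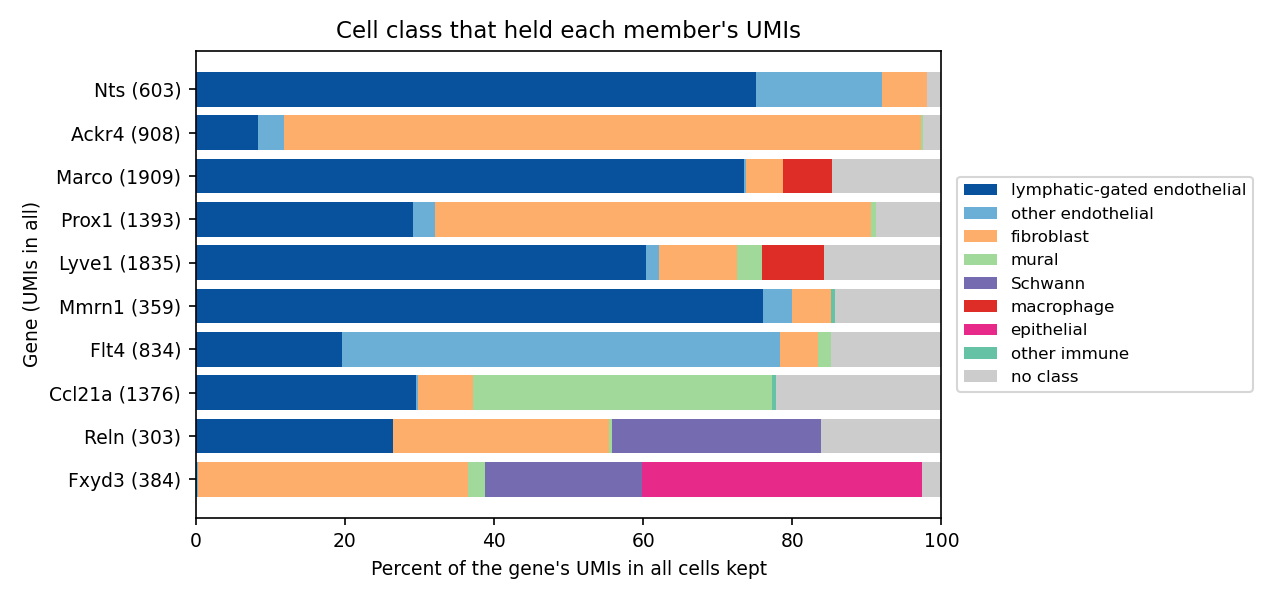
Percent of each member's UMIs, over all cells kept, held by each cell class; the total is beside the gene. Lymphatic-gated cells hold most of the Nts, Marco, Lyve1 and Mmrn1 UMIs, fibroblasts most of Ackr4 and Prox1, other endothelial cells most of Flt4, and none of the Fxyd3 UMIs are in gated cells.

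The Ccl21a locus carries close copies. The listed row on chromosome 4 (42772860 to 42773993, ENSMUSG00000094686) held 1376 UMIs, a row of the same symbol on an unplaced scaffold and both Ccl21b rows held 0, and the Ccl21c rows held 1. The annotated Ccl21b transcript differs from Ccl21a at 2 of its 402 bases, so the values of Ccl21a may include reads of its copies.

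Temperature was not used to choose the members and was tested. Sums of endothelial UMIs per library were compared by edgeR's quasi-likelihood test with age as a term, and 1.83% of the 10674 genes tested were called, 160 of them higher and 35 lower. Of the members, Marco and Lyve1 rose in the cold in these pooled sums. Ccl21a also passed, but it is at 0 in both TN libraries and met the count filter through the cold libraries alone, so its call is not counted with theirs. The gated share of endothelial cells was also lowest at TN. It was 2.39%, 3.34% and 3.61% in Young TN, 3D cold and 14D cold, and 0.740%, 0.917% and 0.805% in the aged libraries. Whether Marco and Lyve1 rose through more lymphatic cells or more RNA in each was not tested. Another 6 members were tested and did not pass. The p-values rest on how far the libraries, each of which is 1 preparation, depart from added effects of age and temperature. No group had a second library, so a cold response that differed between ages counts as spread in them.

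Marco rose by 0.59 ± 0.13 (SE) on the log2 scale at 3D cold and by 0.80 ± 0.13 at 14D cold (edgeR, adjusted p = 0.0164). In both ages TN was the lowest library, at 117 CPM against 169 and 188 in young mice and 17.3 against 26.6 and 35.2 in aged mice. The call was lost with DESeq2 (adjusted p = 0.248) and without the age term (0.970).

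Lyve1 rose by 0.73 ± 0.13 at 3D cold and by 0.47 ± 0.14 at 14D cold (edgeR, adjusted p = 0.0293). TN was again the lowest library, at 87.7 CPM against 133 and 113 in young and 24.5 against 43.3 and 36.8 in aged mice. The call was lost under 6 alternatives, among them leaving out Aged TN (adjusted p = 0.0958).

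Ccl21a was found at the cold temperatures in few cells. In the 4 cold libraries 406 of its 410 UMIs lay in 4 gated cells, so no least fold change over TN is given. The pooled sums passed (edgeR, adjusted p = 3.16e-05), but the libraries that let Ccl21a pass the count filter are those being compared with TN. Without the age term the call was lost (adjusted p = 0.107). At TN, 0 of 22 gated cells had Ccl21a, which allows a share of up to 13.6% of cells with a UMI at this depth.

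Nts and Ackr4 gave values below 0 that did not pass and that rested on the Young TN library. Nts gave -1.13 ± 0.43 at 3D cold and -2.07 ± 0.46 at 14D cold (edgeR, adjusted p = 0.0767), and its direction rested on the 1 Young TN cell. Without that cell the value at 14D cold was 0.98 (adjusted p = 0.0115), and without the Young TN library 1.68 (adjusted p = 0.00419). Ackr4 gave -0.63 ± 0.42 and -1.61 ± 0.46 (edgeR, adjusted p = 0.236). Its value at 14D cold was 1.94 without Young TN (adjusted p = 0.562), and with no filter on low counts it was -1.62 and passed (adjusted p = 0.0268).

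The remaining members did not pass in the pooled cells. Mmrn1 gave 1.23 ± 0.32 and 1.03 ± 0.33 (edgeR, adjusted p = 0.138) and passed under 4 alternatives. Prox1 gave 0.17 ± 0.19 and 0.29 ± 0.19 (adjusted p = 0.773), Reln 0.92 ± 0.63 and 0.82 ± 0.66 (0.758), and Flt4 0.04 ± 0.16 and -0.20 ± 0.17 (0.790). Fxyd3 had too few counts to be tested.

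**Figure D5:**
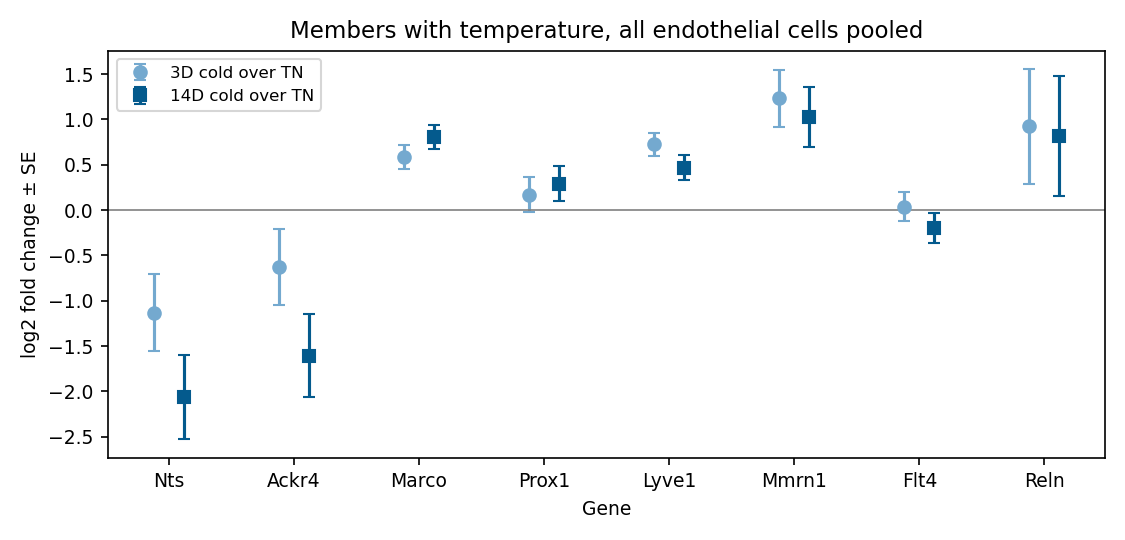
Log2 fold change of 8 members over TN in all endothelial cells, at 3D cold (circles) and 14D cold (squares), from edgeR with age as a term; bars are SE. Marco and Lyve1 lie above 0 at both times and passed the test. Nts and Ackr4 lie below 0 and did not. Ccl21a, at 0 in both TN libraries, is left out.

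In the lymphatic-gated cells alone, 2 of 1653 genes passed with temperature (0.121%; 83 at an unadjusted p under 0.05; DESeq2 called 3), Ccl21a (edgeR, adjusted p = 0.000707), again at 0 in both TN libraries, and Igfbp5, which encodes a secreted binder of insulin-like growth factors and is not a member. The other 8 tested members had an adjusted p of 0.999, with Marco at 0.05 ± 0.24 and 0.55 ± 0.25 and Lyve1 at 0.20 ± 0.23 and 0.15 ± 0.23. Ccl21a lost its call under 4 alternatives, among them leaving out Aged 3D cold (adjusted p = 0.129). With age, 1 of the 1653 genes passed (0.0605%; 91 at an unadjusted p under 0.05), and it was Ccl21a, whose age value in these cells is a description.

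Genes near the members in function were taken from lists chosen with earlier results of these data known. Their adjusted p-values with age are therefore not independent tests of a fall. Of 18 regulators of lymphatic growth, 15 were tested in the pooled endothelial cells and 3 fell with age (edgeR): Maf, a transcription factor, by 0.84 ± 0.14 on the log2 scale (adjusted p = 0.0112), Itga9, an integrin of lymphatic valves, by 0.95 ± 0.21 (0.0390), and Tbx1, a T-box transcription factor, by 1.50 ± 0.33 (0.0388). The list's median was -0.10, beside 0.00 over all genes. The VEGF receptor Kdr gave -0.15 ± 0.08, the co-receptor Nrp2 0.04 ± 0.08, Sox18 -0.12 ± 0.09 and Tie1 -0.10 ± 0.08, and did not pass. Maf kept its call with each library left out, Itga9 lost it without Young 3D cold, Aged TN or Aged 3D cold, and Tbx1 without Young 3D cold, Young 14D cold or Aged 14D cold. DESeq2 called none of the list.

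Of 20 other lymphatic genes, 17 were tested and 4 fell with age: the hyaluronan and scavenger receptor Stab2 by 2.38 ± 0.30 (edgeR, adjusted p = 0.00169), the pump subunit Fxyd6 by 1.60 ± 0.24 (0.00570), the mannose receptor Mrc1 by 2.78 ± 0.52 (0.0190) and Clca3a1 by 1.23 ± 0.27 (0.0411). The list's median was -0.32. Stab1, Cavin2, Gja1 and Prss23 did not pass, at -0.22 ± 0.12, 0.07 ± 0.07, 0.06 ± 0.10 and 0.28 ± 0.11. Stab2, Fxyd6 and Mrc1 kept their call with each library left out, and Clca3a1 lost it without Young 3D cold, Young 14D cold or Aged 3D cold. DESeq2 called Stab2 and Fxyd6, and with thinned cells none passed. These genes were measured in the same cells and the same contrast as the members, so they are not separate evidence of a fall.

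The same genes were then read on either side of the gate. Of the Stab2 UMIs in endothelial cells 160 lay in the 68 gated cells and 3 outside, and of Mrc1 89 and 2. Outside the gate edgeR called 0.694% of 10522 genes with age, and none of the 14 regulators or 15 other lymphatic genes tested there, with Maf at -0.43 (adjusted p = 0.287), Itga9 at -0.04, Clca3a1 at -0.02 and Fxyd6 at -0.73 (0.533). Within the gated cells none of the 9 regulators and 13 other lymphatic genes tested passed with age, and their medians were -0.03 and 0.13. With so few gated cells a missed threshold does not show that levels were alike: Stab2 gave -0.70 ± 0.43 there and Mrc1 -1.16 ± 0.67.

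Among receptors and partners of the members, 9 of 15 were tested in the pooled cells and 2 were called higher with age, both of them hyaluronan synthases, whose product Lyve1 binds. Has1 rose by 1.36 ± 0.25 (edgeR, adjusted p = 0.0176) and Has2 by 2.21 ± 0.50 (0.0444). With TMM factors Has1 stood at 13.0, 18.5 and 27.5 CPM in Young TN, 3D cold and 14D cold and at 12.5, 67.6 and 85.1 in the aged libraries, so that both aged cold libraries were above all young ones and Aged TN was not. Has1 lost its call without Young 14D cold or Aged 14D cold, and Has2 kept it only without Young TN or Aged TN among the libraries left out. Has1 stood at 778 CPM in fibroblasts and 32.5 in the other endothelial cells, and fibroblast markers summed to 447, 886 and 1407 CPM in the other endothelial cells of the aged libraries and to 754, 649 and 958 in the young. The part of fibroblast RNA in these values was not tested. Of 12 blood endothelial genes, the fenestral diaphragm protein Plvap and Lrg1 fell with age, by 0.89 ± 0.17 (edgeR, adjusted p = 0.0190) and 0.79 ± 0.17 (0.0351), and Plvap also passed outside the gate. Lrg1 lost its call without Young 14D cold or Aged 14D cold.

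With temperature, none of the 15 regulators passed in the pooled cells, with 5 at an unadjusted p under 0.05 in edgeR; DESeq2 also called none. Of the other lymphatic genes Fgl2 rose by 2.08 ± 0.29 at 3D cold and 1.94 ± 0.30 at 14D cold (edgeR, adjusted p = 0.00629) and Cp, the copper-binding ferroxidase ceruloplasmin, by 1.20 ± 0.19 and 0.66 ± 0.21 (0.0152). Fgl2 stood at 510 CPM in fibroblasts, 282 in gated and 18.3 in other endothelial cells, and Cp at 122, 313 and 14.9. The fibroblast markers given above for other endothelial cells were lowest at TN in the aged libraries but not in the young, and their part in the calls of Fgl2, Cp and Has1 was not tested. Has1 also rose, by 1.81 ± 0.32 and 2.19 ± 0.32 (0.00793), a call lost without Aged TN and with DESeq2, as did the blood endothelial retinol-binding gene Rbp7, by 0.50 ± 0.08 and 0.48 ± 0.08 (0.0123). Leaving out Young TN, Young 3D cold or Aged 3D cold raised the calls among the 17 other lymphatic genes to 5, 6 and 6, and without the highest doublet scores none of them passed.

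Over the 52 sums of a cell class in a library, the genes outside the members whose log2 CPM most followed the members' summed CPM were Ctsd (r = 0.73), Abhd17b (0.72), Vmp1 (0.71), Fxyd6 (0.68) and Tmem2 (0.65). These sums share libraries and cell classes, and the values are a description.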

How the data were processed

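The 10 members and the gene lists were chosen with earlier results of these data known. The authors deposited UMI counts per gene and barcode, made with Cell Ranger on mm10 from single-cell libraries of CD45-depleted iWAT stromal vascular cells; per the labels R 4.1.1 and Seurat were also used, and none of the later normalization is in the counts.

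Barcodes with more than 200 genes were kept within 3 median absolute deviations of their library's median for log10 UMIs, log10 genes and mitochondrial percentage. Cells were classed by markers: 4 of 8 for endothelial, fibroblast, mural, Schwann and macrophage cells, 3 for epithelial and other immune cells, with fibroblast marker UMIs under 1% outside fibroblasts. The limits of the gate were set after the marker distributions were seen. The member-free clustering used 2000 variable genes, 15 principal components, 20 neighbours and Leiden at a resolution of 0.5. No doublets were removed. Levels are CPM, the UMIs of a gene per 1000000 UMIs of the same class and library.

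UMIs were summed per library and class and compared in edgeR (glmQLFit and glmQLFTest, TMM, filterByExpr), with p-values adjusted by Benjamini-Hochberg over every gene that passed the filter and called under 0.05. Age was fitted with temperature as a term and temperature with age, which left 2 residual degrees of freedom. The study tested cells, and here libraries are the samples. The F test over both cold groups gives 1 p per gene. An SE is the absolute log2 fold change over the root of its F statistic. The named genes are all members, the list genes that passed, up to 4 others per list by mean CPM, and 5 by likeness (Pearson r of log2(CPM + 1), genes with 20 UMIs or more). The tests were also run on simulated data. With a count of 0, 3 counts set the limit for the share of cells.

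Alternatives were DESeq2, RLE factors, no count filter, no second term, each library left out, fixed limits (1000 to 7000 genes, under 10% mitochondrial UMIs), no high Scrublet scores (rate 0.8% per 1000 barcodes), cells thinned to 2000 UMIs, 1 gate marker more or fewer, and the cluster in place of the gate. All barcodes over 200 genes, and leaving out the cell with the most Nts, were added after seeing the data. Promoters were read from RefSeq (GRCm38.p6) and positions from GENCODE on GRCm38. Python 3.11.15 with numpy 2.4.6, scipy 1.17.1, scikit-learn 1.9.0, leidenalg 0.10.2, scanpy 1.11.5 and matplotlib 3.10.9, and, in R 4.3.3, DESeq2 1.42.0 and edgeR 4.0.16 were used.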

Additional observations from a re-analysis of the deposited data

Results flagged for a closer look

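Some members moved one way with cold in the young and the other way in the aged libraries. With 1 library per age and temperature the difference between ages was not tested, and all values are differences in CPM (UMIs per 1000000 UMIs of the same cells) from TN of the same age. In the pooled endothelial cells Nts differed by -97.1 at 3D cold and -116 at 14D cold in young and by 5.25 and 1.71 in aged libraries, and most of the young TN value lay in 1 cell. Prox1 in the pooled cells differed by 8.08 and 12.7 in young and by -0.73 and -0.114 in aged libraries.

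In lymphatic-gated cells Nts differed by -2976 and -2951 in young and by 63.8 and 228 in aged libraries. Flt4 differed there by -17.8 and -147 in young and by 105 and 381 in aged libraries. Reln differed by -45.1 and -97.6 in young and by 178 and 467 in aged libraries, where Aged TN held 2 UMIs in all.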

How the results depend on the processing

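The aged share of gated cells stayed below the young in each alternative, though members picked with age known set the gate. The difference was -2.29 percentage points, -1.50 with 1 more gate marker, -1.42 with thinned cells and -0.102 as a share of all cells. No paired analysis was possible because each group held 1 library and so shared no second replicate number; temperature stood in the age fit as a term, and the counts without it are given below.

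Of genes called with age in pooled cells there were 183, and 45 with DESeq2, 560 without a count filter, 14 without the temperature term, 91 without high Scrublet scores, 58 with thinned cells and 129 to 660 with a library left out. For temperature there were 195, and in the same order 59, 631, 3, 69, 108 and 231 to 529, with 126 under fixed limits. In gated cells age gave 1, and 23 without a count filter, 7 with 1 gate marker fewer, 0 without the temperature term, without high Scrublet scores or with thinned cells, and 0 to 32 with a library left out. Temperature gave 2 there, and 19 without a count filter, 6 with 1 gate marker fewer, 1 under fixed limits, with all barcodes or with the cluster, 0 without the age term or with thinned cells, and 0 to 49 with a library left out. Outside the gate age gave 73, and 25 with DESeq2, 462 without a count filter, 3 without the temperature term, 110 under fixed limits, 45 without high Scrublet scores, 122 with all barcodes and 0 to 540 with a library left out. The causes were not tested beyond what each alternative leaves out.

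Nts in the pooled cells, at -2.07 on the log2 scale for 14D cold over TN, gave -2.41 to 1.68 with a library left out, turning above 0 without Young TN, and 0.98 without its top cell. Of the values of single members under alternatives, 516 counted as unchanged, 30 moved, 14 gained a call and 13 lost one. Another 2, both of Nts as just given, turned direction with a call. Unchanged means for age a shift under the SD between libraries of an age, and for temperature the same call status, whatever the direction or size. Temperature values without a call could thus turn and still be among the 516, as Ackr4 did at 14D cold, with -2.22 to 1.94 over the alternatives. Few gated cells, 4 to 21 per library, limit each value taken within them.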

Other observations

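Apart from the gated cells, 4 cells with mural markers, picked after their values were seen, carried most of the other Ccl21a UMIs. They were a mural cell of Young TN with 420 Ccl21a UMIs and one of Aged TN with 131, and 2 cells of Young 3D cold in no class with 47 and 241, with 5, 6, 5 and 6 of 8 mural markers and 1, 2, 2 and 2 of 8 endothelial markers. In the same order they held 45, 12, 10 and 8 UMIs of Ccl19 and 0, 4, 43 and 79 of Cxcl13, chemokines known from the stroma of lymphoid tissue. The tissue these cells came from, and any tie to the gated cells, was not tested.

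Igfbp5, named because it passed with temperature in the gated cells beside Ccl21a, had 0, 751 and 380 CPM (here scaled by edgeR's TMM factors) in gated cells of Young TN, 3D cold and 14D cold, and 46.2, 1831 and 717 in the aged libraries (edgeR, adjusted p = 0.0177). Like Ccl21a it was thus at or near 0 at TN, where the young and aged libraries held 12 and 10 gated cells. The 2 temperature calls in gated cells fell to 1 or 0 under several alternatives, as given above. In the pooled endothelial cells Igfbp5 rose by 1.64 ± 0.22 on the log2 scale at 3D cold and by 2.07 ± 0.22 at 14D cold (edgeR, adjusted p = 0.00121). Its level in fibroblasts and mural cells is not given here, and the part of their RNA in these values was not tested.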
